A study of Arabidopsis thaliana with 9 samples.

Results

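Strigolactones are plant hormones made from carotenoids. AtCXE15-OE seedlings, which overexpress CXE15, a carboxylesterase that degrades strigolactones, were compared with atd14-1 seedlings, mutant in D14, the strigolactone receptor gene. The comparison sets 3 libraries of AtCXE15-OE against 3 of atd14-1, 6 of the 9 libraries of the series, and it covers every gene of the table that carries a locus ID, 27366 of 27814 rows. It bears on the question of how depletion of the hormone differs from loss of its perception. The other 3 libraries came from Col-0, the wild type, and their values stand beside those of the lines. All were whole Arabidopsis thaliana seedlings grown without treatment at 22 °C under 16 h light and 8 h dark, and the labels give their age inconsistently, as 8 days among the characteristics but as 10 days where RNA extraction is described. The sources used here do not give the promoter of the transgene, the number of transgenic lines, the nature of the atd14-1 allele or the number of seedlings per library. No label states separate cultures or plants for the replicates, and p-values therefore capture only the variation among these libraries, possibly technical. The hour of harvest is not given either, and a difference in handling between the lines cannot be told apart from genotype.

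In strigolactone synthesis D27, an isomerase, and the dioxygenases CCD7 and CCD8 turn a carotenoid into carlactone, which MAX1 and LBO1 oxidise further. The receptor D14 hydrolyses the hormone and, with the F-box protein MAX2, brings the repressors SMXL6, SMXL7 and SMXL8 to degradation. The pathway is best known for holding back the outgrowth of axillary buds. A line that degrades the hormone keeps its receptor, whereas a receptor mutant keeps its hormone.

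Levels below are in CPM, counts relative to a library total that was scaled by trimmed means of M values (TMM), and a log2 fold change is AtCXE15-OE over atd14-1, so that a positive value means higher in AtCXE15-OE. The 9 library totals ranged from 37724263 to 54421069 counts, and 3 counts, taken as the floor, equal 0.0551 to 0.0795 CPM, which covers counting error only. Of the locus IDs, 21131 passed the filter on low counts and were tested in one fit with 294 loci that have no ID. A gene was called when its adjusted p, from edgeR's quasi-likelihood test with Benjamini-Hochberg adjustment, was under 0.05. In whole seedlings, fewer cells of a type and less RNA per cell cannot be told apart. The 12 root markers, among them SHR and SCR, held 158 to 180 CPM in sum in AtCXE15-OE, 180 to 192 CPM in atd14-1 and 161 to 189 CPM in Col-0. Between the lines edgeR called none of them (3 had an unadjusted p under 0.05), DESeq2 called 1, limma-voom none, and edgeR called 1 lower without AtCXE15-OE replicate 1. The 8 seed and embryo markers summed to 6.66 to 11.7 CPM in AtCXE15-OE, 11.8 to 19.1 CPM in atd14-1 and 0.772 to 3.97 CPM in Col-0. Of these 8 markers 6 were tested, with none called by edgeR, DESeq2 or limma-voom and 0 at an unadjusted p under 0.05, and 1 was at 0 in every library. The part of other cell types in the results below was not tested.

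Between the lines, 1475 genes with a locus ID were called, 875 higher and 600 lower in AtCXE15-OE. Over all tested rows 6.94% were called, 4.12% higher and 2.82% lower. Most differences were small, with a median absolute log2 fold change of 0.35 among called genes. Only 22 genes were at least 2-fold higher and 42 at least 2-fold lower, and 8 in each direction passed 4-fold. The same fit called 2.27% of rows in AtCXE15-OE against Col-0 (0.761% higher, 1.51% lower) and 11.9% in atd14-1 against Col-0 (5.06% higher, 6.87% lower); these comparisons share libraries with the direct one. The values of the lines did not overlap in 26% of all rows and in 1471 of the 1475 called genes. In a principal component analysis of the 6 libraries, the leading component, with 28.3% of the variance, placed the 3 AtCXE15-OE libraries between -31.78 and -24.28 and the 3 atd14-1 libraries between 23.89 and 32.06. The share of genes called grew with level, at 0.728% of the 1785 genes under 1 CPM and 19.3% of the 1983 genes over 100 CPM. The direction depended on the scaling: with library size alone and no TMM factors the median of all genes moved from -0.003 to -0.056 on the log2 scale, and 545 genes were called higher and 1055 lower. The number of calls also depended on single libraries. Without replicate 1 of AtCXE15-OE it was 2202 (1188 higher, 1014 lower), and without its replicates 2 or 3 it was 828 or 770. Omitting replicate 1, 2 or 3 of atd14-1 gave 812, 761 or 907.

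Both target genes followed the labels. CXE15 (AT5G06570, chromosome 5) had 964, 763 and 739 CPM in the AtCXE15-OE libraries, 2.94, 3.09 and 3.08 CPM in the atd14-1 libraries and 3.73, 3.96 and 4.12 CPM in the Col-0 libraries. Every AtCXE15-OE library was far above every other library, with a log2 fold change of 8.08 ± 0.12 over atd14-1 (SE; adjusted p = 3.91e-12). The locus runs from 2007419 to 2011179 in the annotation (TAIR10.1) but from 2007600 to 6762804 in the table, and counts of the transgene and of the native gene cannot be told apart. D14 (AT3G03990, chromosome 3, 1033579 to 1035237 in the annotation) had 45.1, 43.4 and 45.1 CPM in AtCXE15-OE libraries, 6.48, 6.81 and 6.92 CPM in atd14-1, and 44.8, 44.8 and 45.3 CPM in Col-0. The AtCXE15-OE and Col-0 libraries lay together, and the atd14-1 libraries stood at a low level (log2 fold change 2.72 ± 0.07, adjusted p = 8.04e-12).

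Genes of strigolactone synthesis were lower in AtCXE15-OE than in atd14-1 at 3 of 5 tested members, and none was higher. CCD8 (AT4G32810, chromosome 4) had 8.8, 6.68 and 7.2 CPM in AtCXE15-OE libraries, 15.2, 15.5 and 13.9 CPM in atd14-1, and 2.15, 1.93 and 2.38 CPM in Col-0. The 3 groups did not overlap, with AtCXE15-OE in the middle, and the log2 fold change between the lines was -0.98 ± 0.13 (adjusted p = 0.000533). CCD8 overlaps another locus in the table, and with overlapping loci summed the value was -0.22 (adjusted p = 0.0379). CCD7 (AT2G44990, chromosome 2), the enzyme acting before CCD8, had 0.654, 1.22 and 1.21 CPM in AtCXE15-OE libraries, 2.61, 2.49 and 2.21 CPM in atd14-1, and 0.0945, 0.257 and 0.167 CPM in Col-0. Its groups took the same order as those of CCD8, with the Col-0 libraries near the floor (log2 fold change between the lines -1.24 ± 0.32, adjusted p = 0.0336). LBO1, an oxidoreductase late in the pathway, averaged 16.6 CPM in AtCXE15-OE, 21.2 CPM in atd14-1 and 14.5 CPM in Col-0 (log2 fold change -0.35 ± 0.09, adjusted p = 0.0277). The call of CCD7 was lost without any 1 of the 6 libraries of the lines, with adjusted p of 0.0706, 0.0653 and 0.072 without AtCXE15-OE replicates 1, 2 and 3 and 0.112, 0.109 and 0.0779 without atd14-1 replicates 1, 2 and 3. That of LBO1 was lost without AtCXE15-OE replicate 2 or 3 (0.0701 and 0.113) or atd14-1 replicate 1 or 2 (0.0641 and 0.134). The count of lower members was 1 when any 1 of these 4 libraries was left out and 2 without atd14-1 replicate 3. D27, at 6.07 CPM in AtCXE15-OE, 5.46 CPM in atd14-1 and 8.04 CPM in Col-0, and the cytochrome P450 gene MAX1, at 21.3, 24.2 and 21.8 CPM in the same groups, were not called between the lines (adjusted p = 0.657 and 0.417).

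Of 10 tested signalling genes, D14 itself was the only one called between the lines. SMXL6 had 44.8, 42.6 and 43.2 CPM in AtCXE15-OE libraries, 40.8, 36.8 and 37.8 CPM in atd14-1, and 51.8, 53.9 and 53.8 CPM in Col-0. Both lines lay below every Col-0 library, and their own log2 difference was 0.18 ± 0.06 (adjusted p = 0.0962). SMXL7 averaged 52.4 CPM in AtCXE15-OE, 54.7 CPM in atd14-1 and 61.7 CPM in Col-0, with a log2 difference between the lines of -0.06 ± 0.06 (adjusted p = 0.604). SMXL8 averaged 9.88 CPM in AtCXE15-OE, 12.5 CPM in atd14-1 and 11.9 CPM in Col-0 (log2 difference -0.34 ± 0.1, adjusted p = 0.052). MAX2 differed by 0.12 ± 0.07 (adjusted p = 0.347). The bud repressor gene BRC1 stood near the floor, at 0.267, 0.111 and 0.234 CPM in AtCXE15-OE libraries, 0.0775, 0 and 0 CPM in atd14-1, and 0, 0.129 and 0.286 CPM in Col-0, so that no difference was detectable at this depth. BRC2 and the homeobox genes HB21, HB40 and HB53, which act with BRC1 in buds, were not called either. None of the 6 tested genes of the related karrikin pathway, which shares MAX2, was called by edgeR, DESeq2 or limma-voom, with log2 differences from -0.06 to 0.15 and 1 unadjusted p under 0.05; 1 was called higher without AtCXE15-OE replicate 1.

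**Figure D1:**
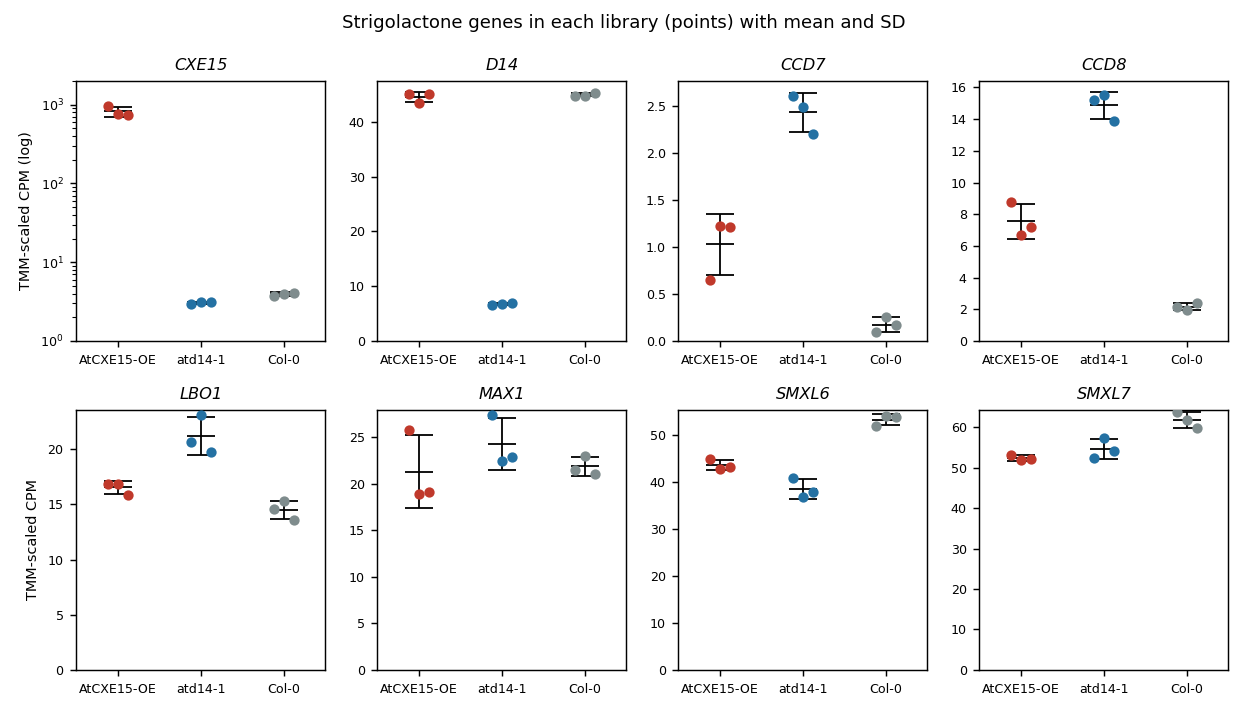
Points are single libraries of AtCXE15-OE, atd14-1 and Col-0 (TMM-scaled CPM; log axis for CXE15, linear from 0 for the others), with the mean and SD as black bars (n = 3). CCD7 and CCD8 are highest in atd14-1 and lowest in Col-0 with AtCXE15-OE between them, and SMXL6 and SMXL7 lie below Col-0 in both lines.

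Across all 33 lists, those of the strigolactone pathway among them, 520 genes were tested, beside a background of 6.94% called. Of these, 81 were higher and 56 lower in AtCXE15-OE, 26.3% in all. The lists were chosen with earlier results of these data known, so this share is a description and no test. Over all genes the share called also depended on level, with 0.728% under 1 CPM and 19.3% over 100 CPM. Photosynthesis, the morning clock and carbon-shortage genes held many of the higher calls, and phosphate, cold, glucosinolate, sulfur, jasmonate and abscisic acid genes many of the lower ones. The lists are described by counts and medians, beside a median log2 fold change of -0.003 over all tested genes.

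**Figure D2:**
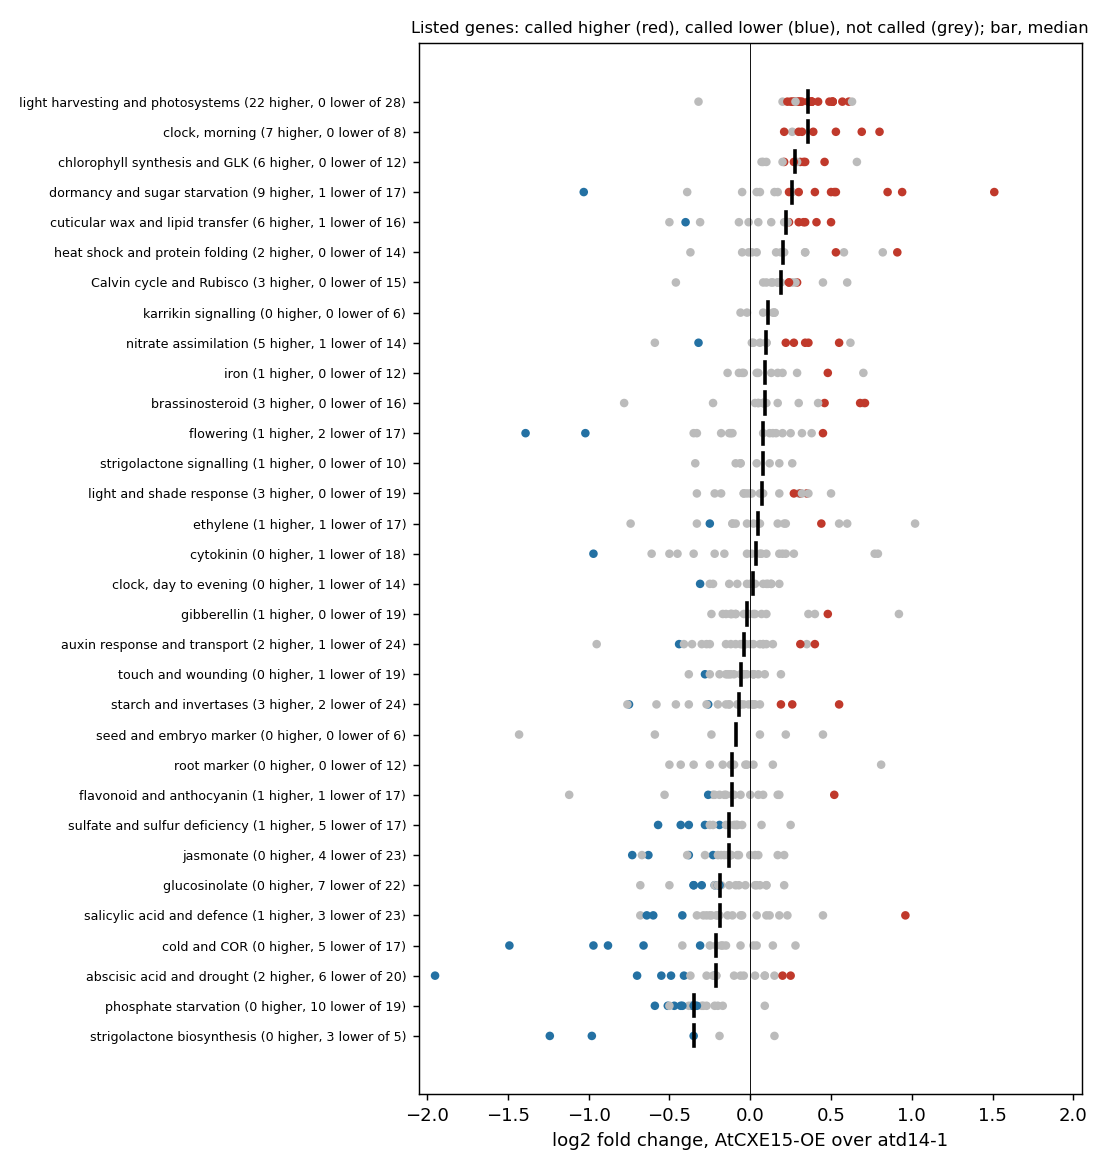
Each row is a list with at least 5 tested genes and each point a tested gene at its log2 fold change, AtCXE15-OE over atd14-1 (red, called higher; blue, called lower; grey, not called), with a black bar at the list's median; 6 points beyond ±2 are not drawn. Light harvesting and the morning clock stand at the top with medians of 0.36 and 0.35, and phosphate starvation near the bottom at -0.35.

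Light-harvesting and photosystem genes were higher in AtCXE15-OE at 22 of 28 tested members and lower at none, against 4.12% of all rows called higher, and the median log2 fold change was 0.36. Against Col-0, edgeR called 0 of the 28 in AtCXE15-OE (7 had an unadjusted p under 0.05; DESeq2 called 6 and limma-voom none), and 23 were lower in atd14-1. LHCA1 (AT3G54890), an antenna protein of photosystem I, had 3403, 2872 and 2881 CPM in AtCXE15-OE libraries, 1940, 1904 and 2162 CPM in atd14-1, and 3415, 3419 and 3313 CPM in Col-0. Every AtCXE15-OE library was above every atd14-1 library (log2 fold change 0.61 ± 0.07, adjusted p = 0.0002). LHCA4, its partner in the antenna, averaged 3891 CPM in AtCXE15-OE, 2733 CPM in atd14-1 and 4160 CPM in Col-0 (0.51 ± 0.05, adjusted p = 4.12e-05). LHCB3, of the photosystem II antenna, averaged 2669, 1894 and 3018 CPM in the same groups (0.49 ± 0.06, adjusted p = 0.000352), and LHCA3 2960, 2207 and 3068 CPM (0.42 ± 0.05). The summed level of the list was 63815 to 70490 CPM in AtCXE15-OE, 50850 to 52618 CPM in atd14-1 and 70816 to 73525 CPM in Col-0, so the lines did not overlap. Of the 6 members not called, PSBY and PSAD-1 switched between levels from library to library: PSBY stood at 1352, 2.73 and 1246 CPM in AtCXE15-OE and at 2.69 to 3.15 CPM in atd14-1, with 1431, 2.91 and 2.78 CPM in Col-0. DESeq2 called PSBY (adjusted p = 0.00176), and PSAD-1 was called without AtCXE15-OE replicate 2 (log2 fold change 0.27, adjusted p = 0.0287). Antenna genes of the LHCB1 group are near-identical copies, and their split counts are uncertain.

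Chlorophyll genes followed at 6 of 12 members, none lower, with a median of 0.28. CAO, which makes chlorophyll b, had 197, 198 and 198 CPM in AtCXE15-OE libraries, 141, 147 and 145 CPM in atd14-1, and 224, 224 and 222 CPM in Col-0. The 3 groups were apart with AtCXE15-OE in the middle (log2 fold change between the lines 0.46 ± 0.04, adjusted p = 3.82e-05). HEMA1, at the start of tetrapyrrole synthesis, differed by 0.33 ± 0.05, CRD1, a cyclase of the pathway, by 0.34 ± 0.05, and GLK2, a transcription factor of chloroplast genes, by 0.27 ± 0.04, while its homologue GLK1 was not called (0.1, adjusted p = 0.274). In the Calvin cycle, 3 of 15 tested genes were called, all higher: RCA, Rubisco activase, at 5898 CPM in AtCXE15-OE, 4825 CPM in atd14-1 and 6412 CPM in Col-0 (0.29 ± 0.06, adjusted p = 0.00625), GAPB (0.24 ± 0.05) and RPE (0.24 ± 0.05). The call of GAPB was lost without atd14-1 replicate 2 (adjusted p = 0.0645), and that of RPE when replicate 3 of AtCXE15-OE or replicate 1 or 2 of atd14-1 was omitted, with an adjusted p of at most 0.0864. DESeq2 called 7 of the 15 higher.

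Morning genes of the circadian clock were higher in AtCXE15-OE at 7 of 8 members, with a median of 0.35, and all 8 had a positive log2 fold change. The cofactor gene LNK2 (AT3G54500), which activates clock genes together with RVE8, had 266, 320 and 312 CPM in AtCXE15-OE libraries, 171, 177 and 168 CPM in atd14-1, and 360, 339 and 324 CPM in Col-0. All atd14-1 libraries lay lowest (log2 fold change 0.8 ± 0.07, adjusted p = 1.64e-05). The repressor genes PRR9 and PRR7 averaged 13 and 137 CPM in AtCXE15-OE libraries, 8.05 and 95.4 CPM in atd14-1, and 13 and 125 CPM in Col-0 (0.69 ± 0.1, adjusted p = 0.00137, and 0.53 ± 0.07, adjusted p = 0.000604). CCA1, a core morning factor, averaged 75.9, 57.9 and 97.1 CPM in AtCXE15-OE, atd14-1 and Col-0 (0.39 ± 0.06, adjusted p = 0.00175), LNK1 74.8, 60 and 82 CPM (0.32 ± 0.05), and LHY, a relative of CCA1 that was not called, 73, 61.2 and 107 CPM (0.26, adjusted p = 0.129). Of 14 day-to-evening clock genes, 1 was called, beside 6.94% of all rows. It was the RNA-binding protein gene GRP7, at 879 CPM in AtCXE15-OE, 1093 CPM in atd14-1 and 669 CPM in Col-0 (-0.31 ± 0.07, adjusted p = 0.0173). That call was lost when replicate 2 or 3 of AtCXE15-OE or replicate 1 or 3 of atd14-1 was omitted (adjusted p at most 0.0891), and 2 were lower without Col-0 replicate 3. Because the harvest hour is not given, a difference in time of day between the lines cannot be told apart from genotype, for clock genes and for genes with a daily rhythm.

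The 300 bases before the annotated starts of LNK2, PRR9 and PRR7, 3 called morning genes picked after their values were seen, are shown because these genes moved together. Sequences are from the RefSeq TAIR10.1 assembly, 5′ to 3′ on the gene's strand, and capitals mark ACGTG on either strand, the core of the G-box, so that the palindrome CACGTG counts as a pair of overlapping matches. LNK2 lies on the minus strand (chr3:20179071-20179370), PRR9 on the plus strand (chr2:19232307-19232606) and PRR7 on the minus strand (chr5:642031-642330).
LNK2: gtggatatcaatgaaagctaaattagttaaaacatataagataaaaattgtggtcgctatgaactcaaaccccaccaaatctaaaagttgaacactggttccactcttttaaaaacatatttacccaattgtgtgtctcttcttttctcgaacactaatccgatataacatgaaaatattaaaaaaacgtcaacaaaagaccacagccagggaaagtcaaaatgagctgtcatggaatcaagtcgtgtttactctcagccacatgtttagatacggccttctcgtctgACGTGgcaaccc
PRR9: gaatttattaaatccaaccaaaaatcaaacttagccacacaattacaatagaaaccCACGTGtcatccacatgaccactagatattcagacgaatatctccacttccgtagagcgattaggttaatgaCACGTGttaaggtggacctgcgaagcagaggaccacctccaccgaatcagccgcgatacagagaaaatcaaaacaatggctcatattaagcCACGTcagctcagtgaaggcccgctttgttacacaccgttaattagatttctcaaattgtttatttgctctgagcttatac
PRR7: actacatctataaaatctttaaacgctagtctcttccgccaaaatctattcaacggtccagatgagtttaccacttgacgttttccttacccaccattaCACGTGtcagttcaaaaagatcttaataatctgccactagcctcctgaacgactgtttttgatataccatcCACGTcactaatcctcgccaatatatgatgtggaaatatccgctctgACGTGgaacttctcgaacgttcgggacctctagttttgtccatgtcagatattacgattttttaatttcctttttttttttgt
These windows held 1, 5 and 4 matches. ACGTG occurred in 5 of the 7 called morning genes, 6 of the 8 tested ones and 26.8% of 20981 windows of the same length. A match is a description of letters and does not show binding.

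Genes that respond to carbon shortage and dormancy were higher at 9 of 17 members and lower at 1, with a median of 0.26. DIN10 (AT5G20250), a raffinose synthase family gene induced by darkness, had 187, 196 and 196 CPM in AtCXE15-OE libraries, 98.8, 100 and 104 CPM in atd14-1, and 237, 251 and 248 CPM in Col-0. The groups were far apart relative to their spread (log2 fold change between the lines 0.94 ± 0.05, adjusted p = 8.23e-08). ASN1, asparagine synthetase, averaged 113 CPM in AtCXE15-OE, 62.7 CPM in atd14-1 and 148 CPM in Col-0 (0.85 ± 0.08, adjusted p = 0.000121). SEN1, a gene of senescence and darkness, had 30.7, 49.9 and 53.8 CPM in AtCXE15-OE libraries, 14.2, 15 and 18.1 CPM in atd14-1, and 51.5, 47.8 and 57.5 CPM in Col-0 (1.51 ± 0.22, adjusted p = 0.0105), a call lost without atd14-1 replicate 1 and without atd14-1 replicate 2 (adjusted p at most 0.0542). AKINBETA1, a subunit of the SnRK1 energy-sensing kinase, differed by 0.5 ± 0.06, and the trehalose phosphate synthase family genes TPS8, TPS9, TPS10 and TPS11 by 0.24 to 0.52, all called. TPS10 lost its call in 9 of 18 alternative settings, among them those without AtCXE15-OE replicate 2 or 3 or atd14-1 replicate 1 or 3 (adjusted p at most 0.178). DIN2, a beta-glucosidase gene of the same list, went the other way, at 2.82 CPM in AtCXE15-OE, 5.77 CPM in atd14-1 and 2.6 CPM in Col-0 (-1.03 ± 0.19, adjusted p = 0.00586). Without AtCXE15-OE replicate 2 the list had 2 lower members.

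Nitrate assimilation genes were higher at 5 of 14 members and lower at 1. NIA1, a nitrate reductase, had 332, 321 and 324 CPM in AtCXE15-OE libraries, 228, 212 and 226 CPM in atd14-1, and 421, 442 and 429 CPM in Col-0. AtCXE15-OE lay between the other groups without overlap (log2 fold change between the lines 0.55 ± 0.05, adjusted p = 2.43e-05). The second nitrate reductase NIA2 differed by 0.36 ± 0.06, the nitrogen-status repressor LBD39 by 0.34 ± 0.06 and the plastid glutamine synthetase GS2 by 0.27 ± 0.05. G6PD3, a plastid glucose 6-phosphate dehydrogenase, was the member called lower (-0.32, adjusted p = 0.0304), and it lost that call without AtCXE15-OE replicate 2 or 3 or any 1 atd14-1 library (adjusted p at most 0.137). Wax and lipid-transfer genes were higher at 6 of 16 and lower at 1; CER2 and CER6, of very-long-chain fatty acid elongation, rose by 0.5 ± 0.08 and 0.41 ± 0.08 (CER2 by 0.2 with overlapping loci summed, adjusted p = 0.0194), whereas CER1, of alkane formation, fell to 60.7 CPM in AtCXE15-OE, against 79.8 CPM in atd14-1 (-0.4, adjusted p = 0.0267). The call of CER1 was lost when replicate 2 or 3 of AtCXE15-OE or replicate 1 or 2 of atd14-1 was omitted (adjusted p at most 0.0863). Leaving out 1 library gave 3 (without atd14-1 replicate 2) to 8 higher wax calls (without AtCXE15-OE replicate 1).

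Growth-hormone lists are set beside the 6.94% of all rows called, 4.12% higher and 2.82% lower. The single calls among 18 cytokinin and 19 gibberellin genes were close to that share. Among brassinosteroid genes 3 of 16 were higher, led by the expansin gene EXP8 at 171, 206 and 208 CPM in AtCXE15-OE libraries, 126, 111 and 120 CPM in atd14-1, and 171, 170 and 171 CPM in Col-0 (0.71 ± 0.07, adjusted p = 4.73e-05). The hormone-inactivating enzyme gene BAS1 (0.46 ± 0.11) and the growth regulator PRE1 (0.68 ± 0.18) were the others, and both lost their call without AtCXE15-OE replicate 2 or 3 or atd14-1 replicate 1 or 2, PRE1 also without atd14-1 replicate 3 (adjusted p at most 0.105 and 0.15). Of 19 light and shade genes 3 were higher, all PIF factors of elongation: PIF5 (0.31 ± 0.05, adjusted p = 0.00218), PIF4 (0.27 ± 0.05) and PIF7 (0.35 ± 0.08; lost without AtCXE15-OE replicate 2, AtCXE15-OE replicate 3 or atd14-1 replicate 3, adjusted p at most 0.0772). DESeq2 called 5 of these 19 higher. The auxin list had 2 of 24 higher, the repressor IAA7 (0.4 ± 0.07) and the conjugating enzyme DFL1 (0.31 ± 0.06), and 1 lower, the influx carrier LAX2 (-0.44 ± 0.1). Of 18 cytokinin genes IPT7, a biosynthesis gene, was lower at 1.2 CPM in AtCXE15-OE, 2.36 CPM in atd14-1 and 1.18 CPM in Col-0 (-0.97 ± 0.23, adjusted p = 0.0229). LAX2 and IPT7 each lost their call when replicate 2 or 3 of AtCXE15-OE or replicate 1 or 2 of atd14-1 was omitted (adjusted p at most 0.0891 and 0.102). Without AtCXE15-OE replicate 1, by contrast, 5 auxin genes were lower and 2 higher, and 2 cytokinin genes were lower and 2 higher. The lower auxin count was 2 without atd14-1 replicate 3, 3 with DESeq2 and 5 with library size only. Of 19 gibberellin genes GASA6, a responsive gene, was higher (0.48 ± 0.09, adjusted p = 0.0132), a call lost when replicate 2 of AtCXE15-OE or replicate 1 or 2 of atd14-1 was omitted (adjusted p at most 0.0628). In the ethylene list ACS6, whose enzyme makes the ethylene precursor, was lower, at 32 CPM in AtCXE15-OE, 38.1 CPM in atd14-1 and 62.6 CPM in Col-0 (-0.25 ± 0.06, adjusted p = 0.0304), a call lost without AtCXE15-OE replicate 1 or 2 or without any 1 atd14-1 library (adjusted p at most 0.124).

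Phosphate starvation genes were lower in AtCXE15-OE at 10 of 19 members and higher at none, against 2.82% of all rows called lower, with a median of -0.35. Against Col-0, edgeR called 0 of the 19 in AtCXE15-OE (1 had an unadjusted p under 0.05; DESeq2 called 1 and limma-voom none), and 13 were higher and 1 lower in atd14-1. The phosphate exporter family gene PHO1;H1 had 27.9, 24.2 and 23.5 CPM in AtCXE15-OE libraries, 38.3, 39.6 and 36.1 CPM in atd14-1, and 24.9, 25.7 and 27.3 CPM in Col-0. AtCXE15-OE and Col-0 overlapped, and atd14-1 lay above both (log2 fold change between the lines -0.59 ± 0.08, adjusted p = 0.000529). SQD1, of sulfolipid synthesis, which replaces phospholipids under shortage, averaged 150 CPM in AtCXE15-OE, 192 CPM in atd14-1 and 133 CPM in Col-0 (-0.35 ± 0.05). The phosphate sensor gene SPX1 averaged 96.8 CPM in AtCXE15-OE, 134 CPM in atd14-1 and 95.6 CPM in Col-0 (-0.47 ± 0.07, adjusted p = 0.00169), and the acid phosphatase gene PAP17 64.9, 92.4 and 64.7 CPM (-0.51 ± 0.08, adjusted p = 0.00321). With overlapping loci summed PAP17 stood at -0.21 and was not called (adjusted p = 0.664). PHO2, a ubiquitin-conjugating enzyme that restrains phosphate uptake, was also lower (-0.35 ± 0.05, adjusted p = 0.00138). The list had 9 to 11 lower calls when 1 library was left out.

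Cold and COR genes, whose products protect cells in cold and drought, were lower at 5 of 17 members and higher at none, with a median of -0.21. COR15A (AT2G42540), a chloroplast protective protein, had 16.3, 9.72 and 15.2 CPM in AtCXE15-OE libraries, 40.4, 36.3 and 38.9 CPM in atd14-1, and 11, 10.9 and 13.4 CPM in Col-0. AtCXE15-OE overlapped Col-0, and every atd14-1 library was above both (log2 fold change between the lines -1.49 ± 0.18, adjusted p = 0.00175). Its neighbouring copy COR15B averaged 24.4 CPM in AtCXE15-OE, 47.7 CPM in atd14-1 and 15.1 CPM in Col-0 (-0.97 ± 0.07, adjusted p = 4.04e-06). GolS2, a galactinol synthase of raffinose synthesis, averaged 25.1, 46.2 and 25 CPM in AtCXE15-OE, atd14-1 and Col-0 (-0.88 ± 0.09, adjusted p = 4.35e-05), and the desiccation gene RD29A 90.4, 143 and 76.7 CPM (-0.66 ± 0.09, adjusted p = 0.00167). The dehydrin gene ERD10 was the fifth (-0.31, adjusted p = 0.00577). The CBF factors that switch on COR genes in the cold were not called: CBF2 had 6.37, 7.82 and 7.07 CPM in AtCXE15-OE libraries, 4.7, 7.15 and 7.44 CPM in atd14-1, and 15, 13 and 15.4 CPM in Col-0, so the lines overlapped below Col-0. KIN1, at 10.4 to 12.5 CPM in AtCXE15-OE, varied within atd14-1, at 17.2, 95.8 and 56.8 CPM, and was not called (-2.29, adjusted p = 0.0834). It was called without atd14-1 replicate 1 (-2.72, adjusted p = 0.00517) and by DESeq2. KIN1 overlaps another locus in the table, and with overlapping loci summed it was called at a smaller value, -0.48 (adjusted p = 0.00701).

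The windows of 300 bases before the starts of COR15A, RD29A and GolS2 are shown because CBF factors are known to bind CCGAC, the C-repeat core; they were picked after the values were seen from the called cold genes that hold a match, and their windows overlap no other gene. Capitals mark CCGAC or its reverse complement GTCGG. COR15A lies on the minus strand (chr2:17712331-17712630), RD29A on the plus strand (chr5:21240417-21240716) and GolS2 on the plus strand (chr1:21207237-21207536).
COR15A: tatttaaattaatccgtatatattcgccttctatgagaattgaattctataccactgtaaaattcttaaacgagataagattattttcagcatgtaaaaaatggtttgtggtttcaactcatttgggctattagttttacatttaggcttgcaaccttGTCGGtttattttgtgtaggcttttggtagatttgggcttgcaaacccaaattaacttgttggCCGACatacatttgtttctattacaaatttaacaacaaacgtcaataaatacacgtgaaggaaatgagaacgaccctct
RD29A: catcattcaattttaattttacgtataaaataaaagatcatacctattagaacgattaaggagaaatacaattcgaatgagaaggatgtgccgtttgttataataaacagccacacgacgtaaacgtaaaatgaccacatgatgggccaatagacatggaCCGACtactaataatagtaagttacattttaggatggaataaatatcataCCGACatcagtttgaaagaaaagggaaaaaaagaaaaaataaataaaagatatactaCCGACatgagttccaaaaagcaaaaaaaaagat
GolS2: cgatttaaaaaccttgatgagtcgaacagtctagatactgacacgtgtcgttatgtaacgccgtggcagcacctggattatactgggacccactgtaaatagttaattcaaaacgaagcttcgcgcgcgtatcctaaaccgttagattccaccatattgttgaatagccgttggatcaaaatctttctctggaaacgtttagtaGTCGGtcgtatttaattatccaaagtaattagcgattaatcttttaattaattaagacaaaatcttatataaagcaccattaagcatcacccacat
The matches began 142 and 79 bases before the start in COR15A, 140, 90 and 33 in RD29A and 96 in GolS2. CCGAC occurred in 4 of the 5 called cold genes, 9 of the 17 tested ones and 14.7% of 20981 windows. ACGTG, not marked in these windows, occurred in 2 of the 5 called cold genes, 9 of the 17 tested ones and 26.8% of all windows. The letters AAAATATCT and GATAAG were searched as well. They occurred in 0 and 3 of the 17 tested cold genes, against 2.92% and 14.5% of all windows. GATAAG occurred in 9 of the 17 tested carbon-shortage and dormancy genes. The phosphate-response motif GNATATNC (P1BS) was also searched on both strands. It occurred in 3 of the 10 called phosphate genes, 6 of the 19 tested ones and 6.59% of all windows.

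Abscisic acid and drought genes were lower at 6 of 20 members and higher at 2. LTP4, a lipid-transfer protein gene induced by the hormone, had 1.67, 3.06 and 2.97 CPM in AtCXE15-OE libraries, 9.61, 8.65 and 11.7 CPM in atd14-1, and 1.16, 1.34 and 1.24 CPM in Col-0. The lines were well apart (log2 fold change -1.95 ± 0.21, adjusted p = 0.000125). CYP707A1, which breaks the hormone down, averaged 9.25 CPM in AtCXE15-OE, 13.6 CPM in atd14-1 and 9.25 CPM in Col-0 (-0.55 ± 0.11, adjusted p = 0.00971). ABA1, of its synthesis, and ABF3, a response factor, were the higher members (0.2 ± 0.05 and 0.25 ± 0.06). ABA1 lost its call when replicate 3 of AtCXE15-OE or replicate 1 or 2 of atd14-1 was omitted, and ABF3 when replicate 2 or 3 of AtCXE15-OE or any 1 atd14-1 library was omitted, with adjusted p of at most 0.0931 and 0.101. The count of lower genes was 2 without atd14-1 replicate 1 and 2 without atd14-1 replicate 3.

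Jasmonate genes were lower at 4 of 23 and higher at none (1 without AtCXE15-OE replicate 1). LOX2, a lipoxygenase of jasmonate synthesis, had 610, 513 and 502 CPM in AtCXE15-OE libraries, 852, 828 and 827 CPM in atd14-1, and 428, 446 and 423 CPM in Col-0. AtCXE15-OE lay between the other groups (log2 fold change between the lines -0.63 ± 0.07, adjusted p = 0.000121). AOC2, a later enzyme, differed by -0.23 ± 0.05, and the wound-induced storage protein genes VSP1 and VSP2 by -0.73 ± 0.09 and -0.38 ± 0.08. VSP1 averaged 61.7 CPM in AtCXE15-OE, 102 CPM in atd14-1 and 78.4 CPM in Col-0, so Col-0 was in the middle. VSP2 lost its call without atd14-1 replicate 1 (adjusted p = 0.054). In the salicylic acid and defence list, 3 of 23 were lower and 1 higher, beside 2.82% of all rows called lower and 4.12% higher. WRKY70, a defence regulator, had 26.6, 30.8 and 32.2 CPM in AtCXE15-OE libraries, 45.3, 44.4 and 45.9 CPM in atd14-1, and 40.9, 37 and 40.2 CPM in Col-0, where AtCXE15-OE was below both other groups (-0.6 ± 0.07, adjusted p = 0.000393). ACD6, a regulator of cell death, differed by -0.42 ± 0.07, and by -0.25 without a call when overlapping loci were summed (adjusted p = 0.0926). WRKY54 differed by -0.64 ± 0.13, a call lost without AtCXE15-OE replicate 3 and without atd14-1 replicate 2 (adjusted p at most 0.0577). AIG1, a gene induced by avirulent bacteria, was higher at 5.13 CPM in AtCXE15-OE, 2.66 CPM in atd14-1 and 9.83 CPM in Col-0 (0.96 ± 0.22, adjusted p = 0.0215), lost when replicate 2 or 3 of AtCXE15-OE or replicate 2 or 3 of atd14-1 was omitted (adjusted p at most 0.0791).

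Sulfur genes split, with 5 of 17 lower and 1 higher. The higher one, APR2 (AT1G62180, chromosome 1), the main isoform of adenosine phosphosulfate reductase, had 193, 194 and 189 CPM in AtCXE15-OE libraries, 36.5, 38.8 and 46.6 CPM in atd14-1, and 195, 202 and 194 CPM in Col-0. AtCXE15-OE and Col-0 lay together and atd14-1 at a much lower level (log2 fold change between the lines 2.24 ± 0.08, adjusted p = 1.08e-09). Its relatives went the other way: APR1 averaged 199 CPM in AtCXE15-OE, 242 CPM in atd14-1 and 155 CPM in Col-0 (-0.28 ± 0.05, adjusted p = 0.00369), and APR3 164, 188 and 144 CPM (-0.19, adjusted p = 0.0396). APR3 lost its call in 9 of 18 alternative settings, among them those without AtCXE15-OE replicate 2 or 3 or any 1 atd14-1 library (adjusted p at most 0.156). The sulfate transporter SULTR2;1 (-0.38 ± 0.05) and the sulfur-deficiency genes SDI1 (-0.57 ± 0.08) and LSU2 (-0.43, adjusted p = 0.00513) were also lower. Glucosinolate genes, which make sulfur-rich defence compounds, were lower at 7 of 22 and higher at none, with a median of -0.18. CYP79F1, which commits methionine-derived precursors to this route, had 307, 346 and 301 CPM in AtCXE15-OE libraries, 406, 405 and 406 CPM in atd14-1, and 285, 278 and 275 CPM in Col-0 (-0.35 ± 0.06, adjusted p = 0.00206), and BCAT4, of the same route, differed by -0.3 ± 0.06. The glucosinolate count was 4 when replicate 2 of AtCXE15-OE or replicate 1 of Col-0 was omitted, and 3 when replicate 3 of AtCXE15-OE or replicate 2 or 3 of atd14-1 was; 1 glucosinolate gene was higher without AtCXE15-OE replicate 1.

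Touch and wounding genes, which respond within minutes to handling, were nearly equal in the lines, with a median of -0.06. Of 19 tested, 1 was called, beside 6.94% of all rows. Against Col-0, 18 of the 19 were lower in AtCXE15-OE (median -0.85) and 18 in atd14-1 (median -0.75). SZF1, a zinc finger gene, had 49.4, 54.8 and 54.5 CPM in AtCXE15-OE libraries, 58.2, 53.5 and 58.8 CPM in atd14-1, and 130, 140 and 144 CPM in Col-0. The lines overlapped far below Col-0 (difference between the lines -0.1 ± 0.06, adjusted p = 0.374). TCH4, a cell wall enzyme, averaged 45.1 CPM in AtCXE15-OE, 46.5 CPM in atd14-1 and 81.3 CPM in Col-0. ZAT10, a stress zinc finger gene, was the called member, at 50.9, 61.9 and 96 CPM in the same groups (-0.28 ± 0.06, adjusted p = 0.013), lost without atd14-1 replicate 2 and without atd14-1 replicate 3 (adjusted p at most 0.0655). Without AtCXE15-OE replicate 2, 2 touch genes were lower.

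**Figure D3:**
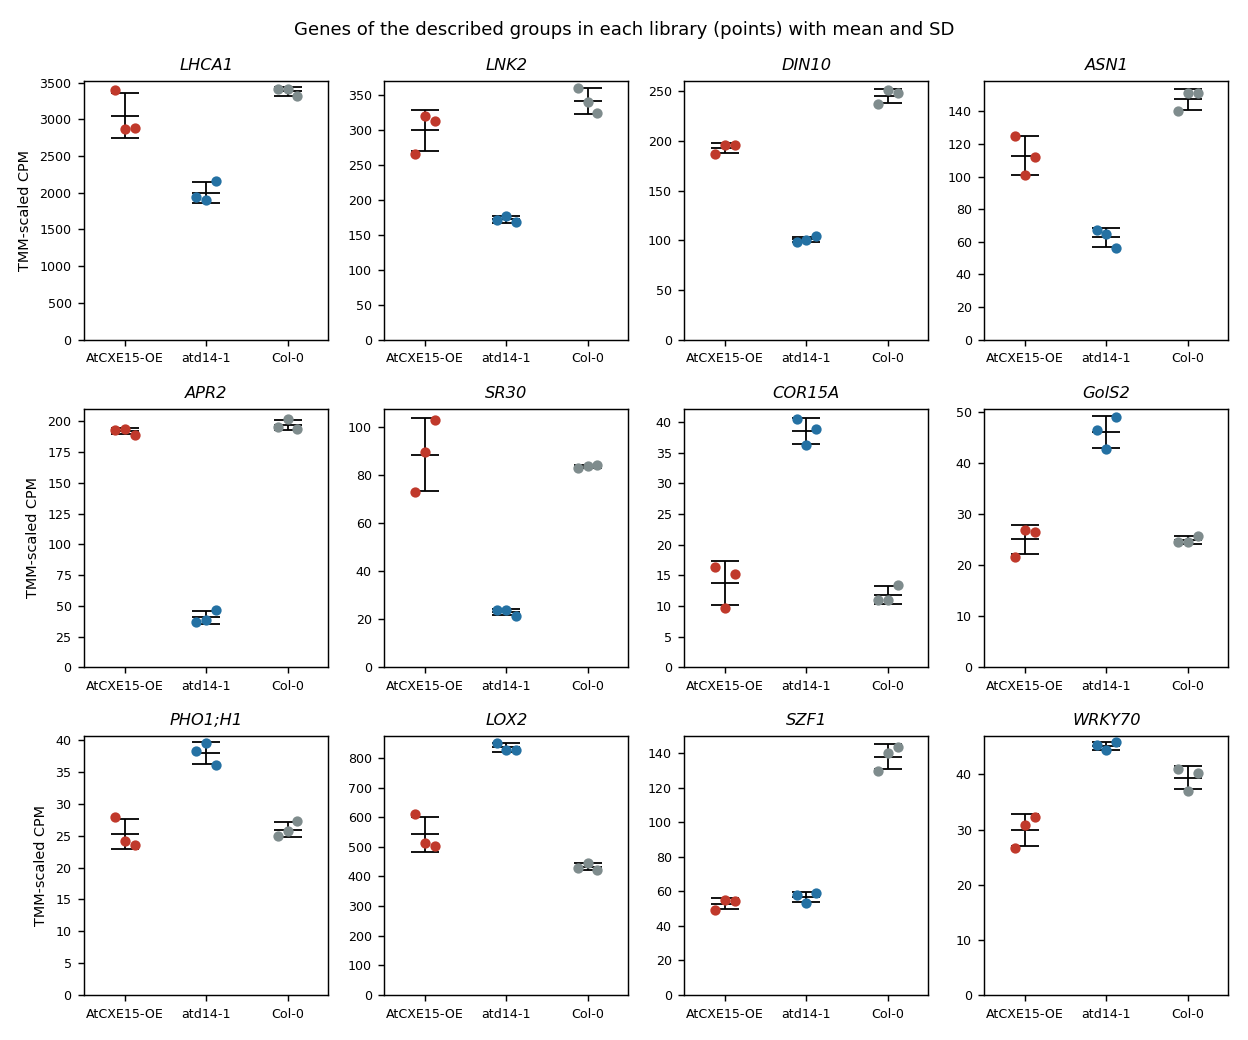
Points are single libraries of AtCXE15-OE, atd14-1 and Col-0 (TMM-scaled CPM, linear axes from 0) with the mean and SD as black bars (n = 3). LHCA1, LNK2, DIN10, ASN1, APR2 and SR30 are lowest in atd14-1; COR15A, GolS2, PHO1;H1, LOX2 and WRKY70 are highest there; SZF1 is low in both lines.

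The remaining lists held scattered calls, beside 4.12% of all rows called higher and 2.82% lower. Starch and sugar genes were higher at 3 of 24 and lower at 2: the hexose carrier STP1 averaged 131 CPM in AtCXE15-OE, 89.7 CPM in atd14-1 and 141 CPM in Col-0 (0.55 ± 0.06, adjusted p = 6.87e-05), and APL3, a subunit of ADP-glucose pyrophosphorylase, 24.5, 41.1 and 23.3 CPM (-0.75 ± 0.08, adjusted p = 0.000139). SEX4, a glucan phosphatase of starch breakdown, was lower as well (-0.26 ± 0.05, adjusted p = 0.00785). The higher count of this list was 1 without atd14-1 replicate 2, and its lower count 5 both with library size only and when replicate 1 of AtCXE15-OE was omitted. Flavonoid genes had 1 higher of 17, the repressor MYBL2 (0.52 ± 0.06, adjusted p = 0.000259), and 1 lower, the flavonol synthase gene FLS1 (-0.26 ± 0.07, adjusted p = 0.049), whose call was lost without any 1 of the lines' libraries except AtCXE15-OE replicate 1 and without Col-0 replicate 1 or 2 (adjusted p at most 0.197). Without AtCXE15-OE replicate 1 the lower flavonoid count was 2, and with library size only it was 3. Of 17 flowering genes, FUL, a MADS-box factor of inflorescence identity, was lower at 1.58, 1.31 and 1.27 CPM in AtCXE15-OE libraries, 3.41, 4.01 and 3.43 CPM in atd14-1, and 1.39, 1.88 and 1.64 CPM in Col-0 (-1.39 ± 0.21, adjusted p = 0.00132). TFL1, which keeps the meristem indeterminate, was also lower (-1.02 ± 0.26, adjusted p = 0.0289), and AGL24, a flowering promoter, higher (0.45 ± 0.12, adjusted p = 0.0396). TFL1 and AGL24 both lost their call without AtCXE15-OE replicate 2 or 3 or any 1 atd14-1 library, and AGL24 also without Col-0 replicate 1, with adjusted p of at most 0.118 and 0.159. In the heat shock list 2 of 14 were higher, HSFA7A (0.91 ± 0.23) and MBF1C (0.53 ± 0.14), and of 12 iron genes FRO3 (0.48 ± 0.12) was higher. HSFA7A, MBF1C and FRO3 each lost the call in 7 to 12 of 18 alternative settings, and MBF1C stood at 0.05 on the log2 scale once overlapping loci were summed.

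In the upward direction, both targets (log2 fold changes 8.08 and 2.72) stood above APR2 (2.24), and the annotation gives neither a primary symbol. After them, the called genes with such a symbol, at least 1 CPM and no overlap of the lines were led upwards by APR2 and by CRK30 (AT4G11460), a cysteine-rich receptor-like kinase gene. CRK30 had 6.2, 4.94 and 6.89 CPM in AtCXE15-OE libraries, 1.52, 1.43 and 1.32 CPM in atd14-1, and 5.01, 6.43 and 4.93 CPM in Col-0 (log2 fold change between the lines 2.08 ± 0.18, adjusted p = 2.14e-05). SR30, a splicing factor gene, had 72.9, 89.4 and 103 CPM in AtCXE15-OE libraries, 23.7, 24 and 21.5 CPM in atd14-1, and 82.9, 83.8 and 84.2 CPM in Col-0 (1.94 ± 0.11, adjusted p = 9.84e-06). At both genes AtCXE15-OE overlapped Col-0, and atd14-1 was lower. SR30 overlaps 3 other loci, and its value was 0.41 with these summed. The list went on with SEN1, with BT2, a BTB and TAZ domain scaffold gene (89.1 CPM in AtCXE15-OE, 39.3 CPM in atd14-1 and 76.2 CPM in Col-0; 1.18 ± 0.09, adjusted p = 1.38e-05), with PYL6, an abscisic acid receptor (1.04 ± 0.24), THI2.2, a thionin (1.01 ± 0.14), AIG1, the carnitine transporter family gene OCT3 (0.95 ± 0.16) and WRI4, a wax regulator (0.94 ± 0.14). WRI4 fell to 0.08 with overlapping loci summed and was then not called (adjusted p = 0.406). PYL6 lost its call when replicate 2 or 3 of AtCXE15-OE or replicate 1 or 3 of atd14-1 was omitted and with limma-voom, with an adjusted p of at most 0.0955.

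Downwards, several of the largest values belonged to overlapping loci. MRD1 (AT1G53480) had 0.267, 0.184 and 0.0586 CPM in AtCXE15-OE libraries, 22.1, 24.2 and 29.5 CPM in atd14-1, and 0.0473, 0.335 and 0 CPM in Col-0 (log2 fold change between the lines -7.24 ± 0.68, adjusted p = 0.00224). HEI10, a meiotic recombination gene whose locus overlaps that of MRD1, averaged 1.83 CPM in AtCXE15-OE, 11 CPM in atd14-1 and 1.5 CPM in Col-0 (-2.59 ± 0.22, adjusted p = 1.57e-05). Summed with the loci it overlaps, each of these gave -0.54. FAS4 stood at 0.111 to 0.234 CPM in AtCXE15-OE, 5.4 to 18.6 CPM in atd14-1 and 13.4 to 17.8 CPM in Col-0 (-6.32 ± 0.66, adjusted p = 0.00331), and SOT18, a glucosinolate sulfotransferase, at 20.3 to 26.8, 64.8 to 118 and 57.3 to 108 CPM (-2.13 ± 0.35, adjusted p = 0.0196). With overlapping loci summed these became -0.1, not called, and -0.19, and limma-voom did not call FAS4 either (adjusted p = 0.06). SOT18 also lost its call when replicate 2 or 3 of AtCXE15-OE or replicate 2 or 3 of atd14-1 was omitted (adjusted p at most 0.0876). NUDT24, a nudix hydrolase gene with no overlapping locus, had 0.242, 0.351 and 0.429 CPM in AtCXE15-OE libraries, 2.43, 2.38 and 2.45 CPM in atd14-1, and 0.189, 0.0772 and 0.167 CPM in Col-0 (-2.81 ± 0.34, adjusted p = 0.000318). LTP4, COR15A, FUL, the sugar exporter gene SWEET14 (-1.45 ± 0.28) and the sulfate transporter gene SULTR1;3 (1.93 CPM in AtCXE15-OE, 4.79 CPM in atd14-1 and 1.53 CPM in Col-0; -1.31 ± 0.21) made up the rest.

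Around the target loci, 3 of the 40 tested genes nearest to D14 were called (7.5%, against 6.94% of all rows) and 1 of the 40 nearest to CXE15 (2.5%). Beside D14 these were MS2, a methionine synthase, at 426 CPM in AtCXE15-OE, 550 CPM in atd14-1 and 374 CPM in Col-0 (-0.37 ± 0.05, adjusted p = 0.0011), the auxin-responsive gene SAUR27 (0.93 ± 0.25, adjusted p = 0.0366) and AT3G04010 (0.43 ± 0.11, adjusted p = 0.0315). Beside CXE15 it was the transcription factor gene NF-YA10, at 7.05 CPM in AtCXE15-OE, 12 CPM in atd14-1 and 5.96 CPM in Col-0 (-0.77 ± 0.13, adjusted p = 0.00331). SAUR27 lost its call when replicate 2 or 3 of AtCXE15-OE or replicate 1 or 2 of atd14-1 was omitted, and AT3G04010 when replicate 2 or 3 of AtCXE15-OE or replicate 2 or 3 of atd14-1 was omitted, with adjusted p of at most 0.153 and 0.138.

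Where the mean of each group fell was counted over the 1475 called genes. The mean of AtCXE15-OE lay between the other groups in 728 (49.4%, against 41.6% of all tested genes), that of Col-0 in 703 (47.7%, against 32.7%) and that of atd14-1 in 44 (2.98%, against 25.7%). The genes were chosen for a difference between the lines, so these shares are a description with no test. CCD8, CAO, NIA1, DIN10 and LOX2 are examples with AtCXE15-OE in the middle, and MYBL2, EXP8, VSP1 and WRKY70 of genes with Col-0 in the middle.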

How the data were processed

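Polyadenylated RNA of whole seedlings was sequenced. The authors deposited raw counts per gene for 9 libraries, not normalized; per the submitters' processing notes, HISAT2, Picard, SAMtools 0.1.18, DESeq and the build TAIR10 were used. No source used here gives the counting tool or its handling of strand and multi-mapping reads, and the library steps, per the labels' protocols, do not mark strand. Genes and their antisense partners therefore cannot be told apart, and overlapping or near-identical genes may share reads. Among the deposited counts, 3 occurred 2938 times, 4 occurred 1491, 5 occurred 1987, 6 occurred 1095 and 7 occurred 1495 times. The source of this alternation was not tested, and the floor of 3 counts does not cover it. IDs were matched to RefSeq TAIR10.1 (26694 of 27366, with 10367 symbols); the annotation pairs no CXE15 symbol with AT5G06570, which is called CXE15 here from general knowledge.

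Samples were grouped by title. Counts were fitted with edgeR 4.0.16 (R 4.3.3; filterByExpr with a minimum count of 10, TMM, robust quasi-likelihood, group means of all 9 libraries), adjusted over 21425 rows; Col-0 comparisons come from the same fit. Within groups, pairs of libraries correlated at 0.973 to 0.978 (log2 CPM), and every pair differed by more than sampling noise. On simulated counts for this comparison (5 draws of 21425 genes, 200 changed in each), 41.9% of 1.5-fold, 75.9% of 2-fold and 91.6% of 4-fold changes were recovered, with 7.22% false calls. The data differ from this setting, with 1475 genes called at a median absolute log2 fold change of 0.35. These rates therefore need not hold for them. Alternatives were DESeq2 1.42.0, limma-voom 3.58.1, other scalings and filters, the 6 libraries alone, overlapping loci summed (rows spanning over 20 kb kept apart), a replicate block and each library left out.

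The comparison and the 33 lists were chosen with earlier results of these data known. Of the listed genes, 11 were left out because their symbol was absent from the annotation. Named genes are both targets, all strigolactone genes, the 10 largest called differences in each direction (with a symbol, at least 1 CPM, no overlap of the lines), up to 4 called members per other list by adjusted p, and called neighbours of the targets (20 tested genes on each side). Other genes named were chosen after their values were seen, among them TPS8, TPS9, TPS10, CCA1, LHY, DIN2, SPX1, PAP17, ERD10, CBF2, KIN1, G6PD3, CER1, LSU2, APR3, SZF1, TCH4, GLK1, PSBY and PSAD-1. A gene that the rule names is not reported here. The 2 pollen markers summed to at most 0.0651 CPM in any library and were not tested.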

Additional observations from a re-analysis of the deposited data

Results flagged for a closer look

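Loci without a locus ID lie outside the comparison of genes, and 5 of them are listed because every library of a line exceeded both the other line and Col-0. Arabidopsis_thaliana_newGene_781 averaged 1.42 CPM in AtCXE15-OE, 0 CPM in atd14-1 and 0.284 CPM in Col-0. Arabidopsis_thaliana_newGene_404 averaged 0.737 CPM in AtCXE15-OE, 0.0181 CPM in atd14-1 and 0 CPM in Col-0. In the other direction, Arabidopsis_thaliana_newGene_228 averaged 2.6 CPM in AtCXE15-OE, 4.93 CPM in atd14-1 and 2.09 CPM in Col-0, Arabidopsis_thaliana_newGene_970 0.346, 2.65 and 0.184 CPM, and Arabidopsis_thaliana_newGene_1030 1.86, 5.0 and 2.82 CPM in the same groups. Groups of 3 libraries are too small for a test of single outlying libraries.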

How the results depend on the processing

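Of 105 called genes that the naming rule gives, 71 were called in all 18 alternatives, 34 lost the call in at least 1, and none changed direction; 2 uncalled ones, MAX1 and SMXL8, were called in at least 1. Of 18 called genes named after their values were seen, 5 lost the call in at least 1 and none changed direction. The 875 higher and 600 lower calls became 545 and 1055 with library size only and 1171 and 913 with DESeq2; limma-voom gave 792 and 571. Leaving out 1 library gave 761 to 2202 calls in all, 464 to 1188 higher and 292 to 1014 lower, and 3 to 7 lower glucosinolate genes. With overlapping loci summed, 1362 of the 1475 genes lay in a called locus; 329 called genes overlap another locus. Replicate numbers did not pair the libraries (same-number correlations of deviations between the lines -0.0157, -0.0211 and -0.0489); with a replicate block 903 genes were higher and 647 lower. In that blocked fit 1362 of the 1475 were called. Over all rows 4382 had an unadjusted p under 0.05. Genes near the floor, such as BRC1, cannot be compared at this depth.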

Other observations

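Annotated product names group genes without the lists, although the words, and the genes named here, were chosen after the values were seen. The classes can hold genes of the lists, photosystem genes among them. This overlap was not counted, so the classes are not separate support. Of 52 tested genes with "photosystem" in the product name, 30 were higher in AtCXE15-OE than in atd14-1 and none lower (57.7%, against 4.12% of all rows). Chaperone DnaJ genes were higher at 9 of 49 and peptidyl-prolyl cis-trans isomerase genes, which help proteins fold, at 7 of 36, with none lower in either class. Ribosomal protein genes were higher at 20 of 318 (6.29%) and lower at none, and histone genes were higher at 1 and lower at 1 of 95. Kinase genes were called at 47 higher and 30 lower of 1184, 3.97% and 2.53%, close to the shares over all rows.

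Of 5 BTB and TAZ domain scaffold genes, 3 were higher. Of all rows, 4.12% were called higher and 2.82% lower. BT1 averaged 56.9 CPM in AtCXE15-OE, 31.4 CPM in atd14-1 and 57.7 CPM in Col-0 (log2 fold change between the lines 0.86 ± 0.08, adjusted p = 2.97e-05), and BT5 25.9, 14.6 and 37.1 CPM (0.83 ± 0.08, adjusted p = 3.59e-05); BT2 is described above, and BT3 and BT4 were not called. Among 11 SWEET sugar transporter genes, SWEET1 was higher at 14.4 CPM in AtCXE15-OE, 10 CPM in atd14-1 and 13.8 CPM in Col-0 (0.52 ± 0.1, adjusted p = 0.00769; 0.22 with overlapping loci summed), and SWEET13 was lower, like SWEET14, at 4.26, 9.65 and 4.11 CPM (-1.18 ± 0.19, adjusted p = 0.00235). Lipid-transfer and seed storage family genes (the bifunctional inhibitor class) were lower at 9 of 60 and higher at 3. AT3G53980 of that class had 108, 89 and 92.3 CPM in AtCXE15-OE libraries, 218, 215 and 197 CPM in atd14-1, and 64, 62.3 and 63.5 CPM in Col-0 (-1.12 ± 0.07, adjusted p = 7.16e-07). AT1G80130, with no symbol in the annotation, averaged 14.2 CPM in AtCXE15-OE, 43.1 CPM in atd14-1 and 13.4 CPM in Col-0 (-1.6 ± 0.08, adjusted p = 4.85e-08).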
